A study of Anguilla anguilla with 24 samples.

Results

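The livers of 12 European eels (Anguilla anguilla) were compared by RNA sequencing, 6 from eels exposed to gold nanoparticles for 21 days through their food and 6 from control eels. These liver libraries, chosen by tissue label alone, are 12 of the 24 libraries of the study, and the other 12 are the brains of the same eels. Control livers are those of eels 1 to 6 (labelled NP0) and gold-fed livers those of eels 7 to 12 (labelled NP1), each library from 1 animal. The sources used here do not give age, sex, particle size, gold dose or whether eels shared tanks, and the p-values cover only the spread among these animals. The comparison addresses which liver transcripts differ after dietary gold.

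The liver makes bile, plasma proteins, complement and lipoproteins, and it is where cholesterol and fatty acids are made for export. In mammals, its resident macrophages take up metal particles from the blood. Metals are known for inducing metallothionein, and oxidants for inducing antioxidant genes, so both classes are described below beside lipid, immune and stress genes.

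The libraries held 50.3 to 89.8 M counted reads (M, mega), with 70.2 ± 11.3 M (SD, n = 6) in control and 69.2 ± 12.4 M in gold-fed livers. Neither depth (exact permutation p = 0.894), the number of contigs with a count (p = 0.409), the share of reads in the 100 most abundant contigs (p = 0.39) nor the scaling factor (p = 0.4) separated the groups in exact two-sided permutation tests. Contigs with the most reads included the fibrinogen chain fgg.1.2, the complement component c3.13.14, the transferrin TRFE1.5.6 and the apolipoproteins apoa4.3.4 and apoa2.1.3, which are hepatocyte products. Of 19 hepatocyte markers 13 had a contig, and their summed level was 21700 to 39800 normalised CPM (read counts scaled to library size) in control and 27700 to 35400 CPM in gold-fed livers. Names that matched no contig label included alb, cps1, hnf4a, apoa1 and apob. Names are those of the contig labels of a transcriptome assembly, in which agpat3.1.2 is copy 1 of 2 contigs labelled agpat3.

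No single contig passed an adjusted p of 0.05 in edgeR, 0 of 41793 tested (0.0%), and the smallest adjusted p was 0.0652. At an unadjusted p below 0.05, 1842 contigs (4.41%) had higher and 1671 (4.0%) lower values in gold-fed livers, a split of 52.4% higher that became 65.1% when libraries were scaled by their totals alone. DESeq2 called 97 contigs higher (0.238%) and 192 lower (0.472%) at the same adjusted threshold, while limma-voom called 0. In 94 contigs all 6 gold-fed livers lay above all 6 control livers (0.225%), and in 103 all lay below (0.246%). With library totals as the scaling these counts were 105 and 72. The median log2 fold change over all contigs was 0.02. In the edgeR fit of all 12 livers and no other library, no difference given below passed the adjusted threshold. With the brain libraries added to the fit, 229 contigs passed for the liver comparison. The words "higher" and "lower" describe levels in these 12 livers.

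**Figure D1:**
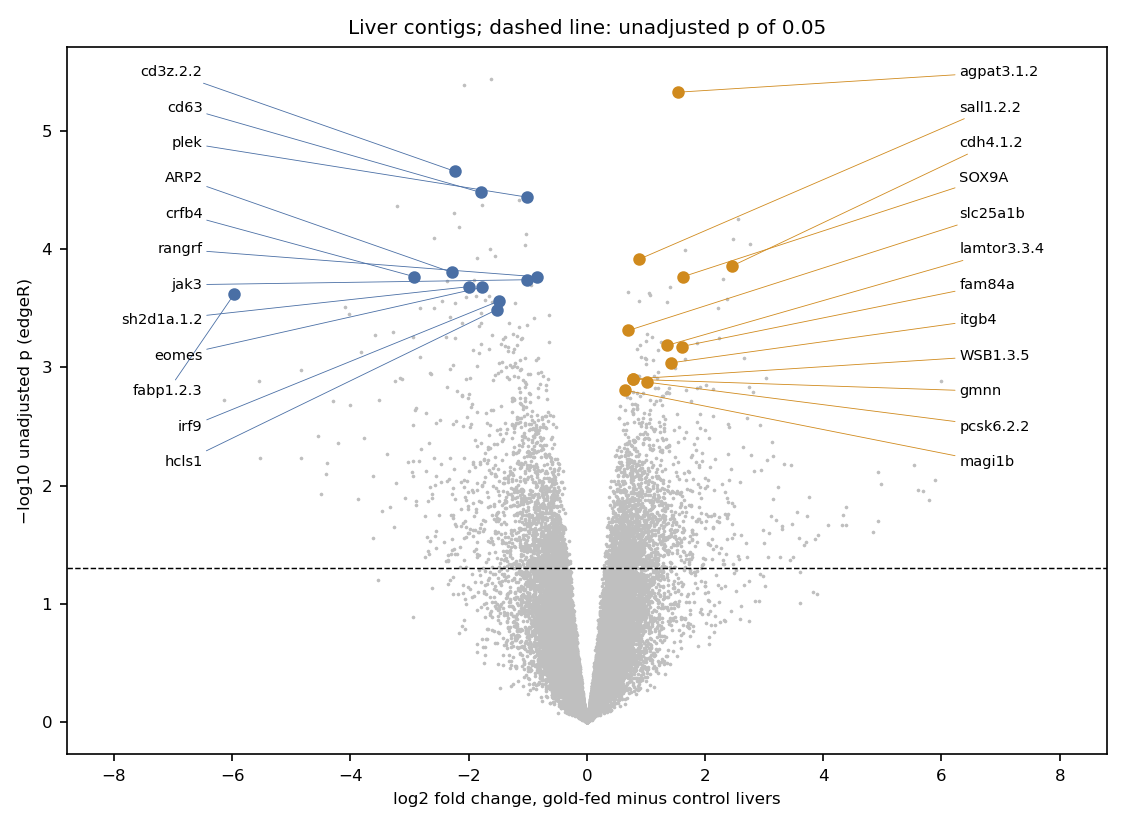
Each dot is 1 of 41793 liver contigs, placed by log2 fold change (gold-fed minus control, horizontal) and −log10 of the unadjusted edgeR p (vertical). Coloured points are the 12 named contigs per direction with the smallest p, from cdh4.1.2 (log2 fold change 2.46) on the right to fabp1.2.3 (-5.97) on the left, with agpat3.1.2 (1.55) the highest of them, and grey dots above the dashed line have an unadjusted p below 0.05.

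The named contig of smallest p belonged to phospholipid synthesis. In control livers agpat3.1.2, an acyltransferase that makes phosphatidic acid, had a lowest level of 11.7, a median of 15.2 and a highest level of 20.03 CPM. In gold-fed livers the same levels were 33.7, 42.6 and 63.6 CPM. All 6 gold-fed livers stood above all controls, with a log2 fold change of 1.55 (SE 0.21, edgeR adjusted p 0.0652, DESeq2 adjusted p 7.42e-08). It ranged from 1.43 to 1.63 as each liver in turn was left out. The second copy, agpat3.2.2, differed the other way, at 2.57 to 4.83 CPM in control and 1.59 to 3.98 CPM in gold-fed livers (a log2 fold change of -0.52). With both copies summed the log2 fold change was 1.32, and in the brains of the same eels that of agpat3.1.2 was 0.01. Of all 34 contigs of the glycerolipid list, 1 was higher and 1 lower at an unadjusted p below 0.05 (2.94% each), and those were the agpat3 copies. The shares of all contigs were 4.41% and 4.0%. The list's median log2 fold change was -0.01.

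The citrate carrier slc25a1b, which brings mitochondrial citrate to the cytosol as the carbon source of fatty acid and sterol synthesis, had 59.2 to 94.5 CPM in control livers (median 78.9). It had 112 to 144 CPM in gold-fed livers (median 123). The groups did not overlap, and the difference was small in fold, with a log2 fold change of 0.70 (SE 0.16, edgeR adjusted p 0.288, DESeq2 adjusted p 0.00125). It was -0.13 in brain.

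Genes that make cholesterol had mostly higher values in gold-fed livers. Of 15 contigs of sterol synthesis, 14 had a log2 fold change above 0 and 8 (53.3%) were higher at an unadjusted p below 0.05, beside 4.41% of all contigs. None was lower at that threshold, and the median log2 fold change was 0.89. After DESeq2's adjustment 1 of the 15 passed. The level depended on gold-fed eel 11. Summed over the list it was 121 to 287 CPM in control livers and 173 to 423 CPM in 5 gold-fed livers, with 1350 CPM in eel 11. Without eel 11, 4 contigs were higher and the median was 0.54. Gold-fed eels 10 and 12, at 227 and 173 CPM, lay within the control range.

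The methylsterol oxidase msmo1, which removes methyl groups from lanosterol products, had 9.64 to 51.9 CPM in control livers, with a median of 22.7. In gold-fed livers it had a median of 55.6, with 25.8 CPM in the lowest and 522 CPM in eel 11. Of the gold-fed livers 4 lay above the highest control, so the groups overlapped, and the log2 fold change of 2.29 (SE 0.76) became 1.00 without eel 11. The same eel was highest for tm7sf2, a sterol reductase, at 25.3 CPM, where the median of controls was 1.75 and that of gold-fed livers 4.29 CPM. Its log2 fold change was 1.92 with all eels and 1.09 without eel 11, and it was the member that passed in DESeq2 (adjusted p 0.0434).

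Squalene synthase, which commits isoprenoids to sterols, was represented by a pair of copies. Their values agreed in direction, with log2 fold changes of 1.52 (fdft1.1.2) and 1.90 (fdft1.2.2), and 0.54 and 0.75 without eel 11. Lanosterol synthase (lss) had 2.19 to 5.43 CPM in control and 3.15 to 42.9 CPM in gold-fed livers, the highest in eel 11, and its log2 fold change of 1.72 was 0.96 without that eel. The isomerases idi1 (1.5) and ebp (1.77) and the desaturase sc5d (0.71) also had an unadjusted p below 0.05 with all eels. Without eel 11, the highest liver for each, the values were 0.65, 0.65 and 0.41 and did not reach that threshold.

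Regulators and receptors of cholesterol were 26 contigs, with a median of 0.37. At an unadjusted p below 0.05, 5 (19.2%) were higher and 0 lower, beside 4.41% and 4.0% of all contigs. Without eel 11, 3 were higher. Of those 5, 4 were copies of 1 gene, srebf2, the transcription factor that induces sterol synthesis when cells run short of cholesterol. Its 5 copies had log2 fold changes from 0.83 to 1.39 with all eels and from 0.28 to 0.89 without eel 11, and summed with all eels they gave 1.27. Its copy srebf2.2.5 had 7.03 to 11.4 CPM in control livers and 9.99 to 64.3 CPM in gold-fed livers, the highest again in eel 11. Its log2 fold change was 1.39 with all eels and 0.72 without eel 11. The low density lipoprotein receptor copy ldlr.2.3 had 34.7 to 99.8 and 74.2 to 198 CPM, and its log2 fold change of 0.93 was 0.87 without eel 11. Copy ldlr.1.3 had 12.85 to 44.2 CPM in control and 17.7 to 42.5 CPM in gold-fed livers, and ldlr.3.3 had 53.8 to 128.6 and 85.0 to 215.3 CPM. After copies were summed the list's median was 0.04, with 2 of 14 labels higher. Cholesterol 25-hydroxylase (CH25H), which makes an oxysterol that represses srebf2 processing in mammals, had 0.473 to 1.2 CPM in control and 0.130 to 0.394 CPM in gold-fed livers, without overlap (log2 fold change -1.77, SE 0.30, edgeR adjusted p 0.201).

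**Figure D2:**
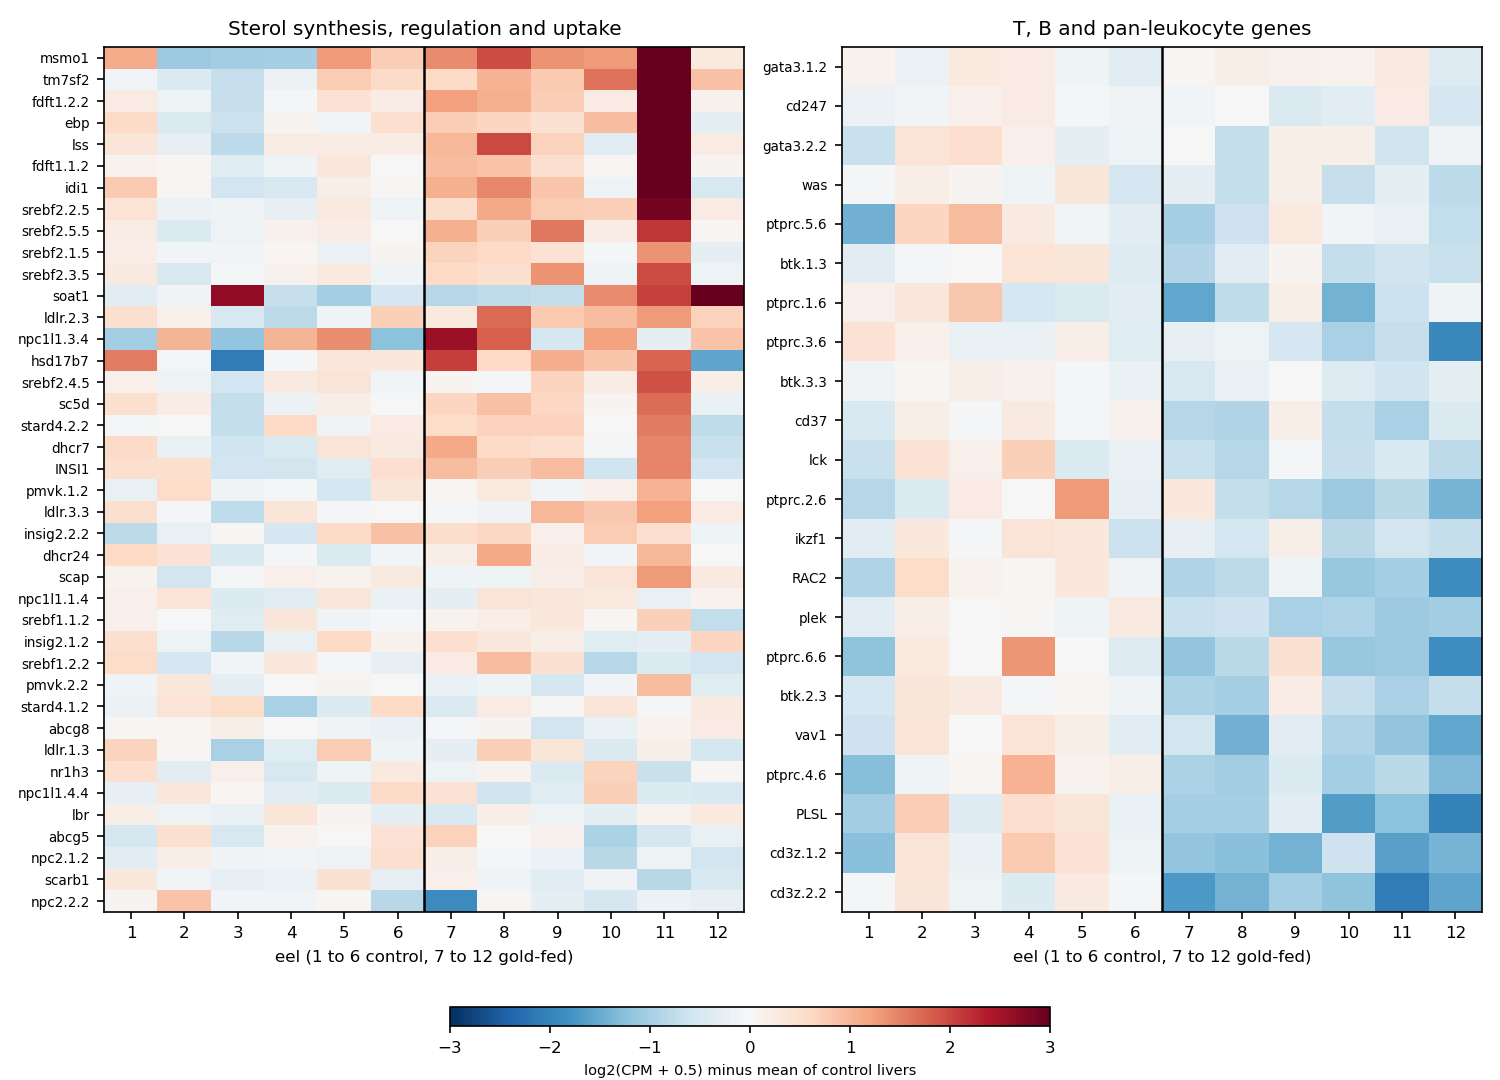
Each row is a contig (1 list member is not shown) and each column an eel, with controls (1 to 6) left and gold-fed eels (7 to 12) right of the black line. Colour is log2(CPM + 0.5) minus the mean of the control livers, limited to 3 in either direction. Eel 11 is dark red for many sterol contigs, up to msmo1 at 522 CPM, while the leukocyte panel is mostly blue in all gold-fed eels except eel 9.

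Fatty acid synthesis gave 23 contigs, with a median log2 fold change of 0.23. At an unadjusted p below 0.05, 4 (17.4%) were higher and 1 (4.35%) lower, beside 4.41% and 4.0% of all contigs. The higher members were desaturase and elongase contigs of long unsaturated fatty acids. Elongase elovl2.2.3 had 4.74 to 21.9 CPM in control and 20.1 to 27.2 CPM in gold-fed livers (a log2 fold change of 0.84). The desaturase copies fads2.1.3 (0.74) and fads2.3.3 (0.72) had their highest level in eel 11, at 318 and 151 CPM. The lipogenic regulator mid1ip1 was lower, at 36.9 to 106 CPM in control and 19.7 to 57.5 CPM in gold-fed livers (-0.88). Fatty acid synthase itself (fasn) varied more between eels of a group than between groups, from 84.8 to 1314 CPM in control and 20.9 to 1963 CPM in gold-fed livers. The desaturase scd ranged likewise, from 272 to 1874 and from 87.5 to 1895 CPM. Without eel 11, 1 contig of the list was higher.

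Fatty acid binding proteins carry fatty acids in the cytosol, and fabp1.2.3 had the largest fold difference among the 24 named contigs of smallest p. It stood at 0.442, 14.3, 0.155, 6.74, 18.4 and 42.9 CPM in control eels 1 to 6. In gold-fed eels 7 to 12 it stood at 0.118, 0.222, 0.141, 0.0863, 0.704 and 0.0390 CPM. The groups overlapped, since control eels 1 and 3 had levels in the gold-fed range and the other 4 controls were above every gold-fed liver. The log2 fold change was -5.97 (SE 1.21, edgeR adjusted p 0.228, DESeq2 adjusted p 3.86e-05). Copies fabp1.3.3 and fabp1.1.3 had log2 fold changes of -5.55 and -4.83, with controls of 0.408 to 237 and 0.394 to 276 CPM. Gold-fed livers had 0.169 to 6.83 and 0.0781 to 14.7 CPM, so both copies overlapped through the same control eels 1 and 3. The related contig FABPL had 28.1 to 110 CPM in control and 14.3 to 55.2 CPM in gold-fed livers (-0.90). By contrast fabp3.2.2 had 998 to 2215 CPM in control and 1287 to 2230 CPM in gold-fed livers (0.06). In all, 5 of 28 apolipoprotein and fatty acid binding protein contigs (17.9%) were lower and 0 higher at an unadjusted p below 0.05, 3 of them the fabp1 copies, with a list median of -0.04. Without control eel 4, 2 contigs were higher and 7 lower. Apolipoprotein apom, a component of high density lipoprotein, was 276 to 492 CPM in control and 180 to 310 CPM in gold-fed livers (-0.51). Fatty acid oxidation had 1 of 28 contigs higher (3.57%), the coactivator copy ppargc1a.2.3 (1.1), and 0 lower (2 without gold-fed eel 12). Bile acid genes had 1 of 11 lower (9.09%), which was CH25H, and 0 higher. The shares of all contigs were 4.41% higher and 4.0% lower.

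The list of T cell, B cell and pan-leukocyte genes had mostly lower values in gold-fed livers. Of its 42 symbols 13 matched a contig label. The B cell markers cd79a and cd79b matched none, so B cells are not described apart from other leukocytes. Of 22 contigs of 13 labels, 21 had a log2 fold change below 0 and 15 (68.2%) were lower at an unadjusted p below 0.05, beside 4.0% of all contigs. None was higher at that threshold, the median was -0.90, and DESeq2 called 5 of the 22. The count was 12 to 17 as each liver in turn was left out, and 9 of 13 after copies were summed. The summed level was 58.3 to 133 CPM in control and 33.0 to 81.9 CPM in gold-fed livers. These ranges overlap through control eel 1, the lowest control, and gold-fed eel 9, the highest gold-fed liver. In bulk liver, fewer cells of a type and less RNA per cell cannot be told apart.

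Both contigs labelled cd3z, the zeta signalling chain of the T cell receptor, were lower. Contig cd3z.2.2 had 1.56 to 3.01 CPM in control (median 2.16) and 0.141 to 0.845 CPM in gold-fed livers (median 0.460), without overlap. Its log2 fold change was -2.23 (SE 0.35, edgeR adjusted p 0.201, DESeq2 adjusted p 1.31e-06). Contig cd3z.1.2 had 0.715 to 4.50 and 0.436 to 1.40 CPM (-1.83). Contig cd247, a second label for that chain, was close between groups (-0.25).

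Other T cell and natural killer cell genes outside the list were among the 12 named contigs of smallest p. The kinase jak3, which signals for cytokines of lymphocytes, had 3.33 to 6.54 CPM in control (median 5.16) and 1.83 to 3.18 CPM in gold-fed livers (median 2.44). The cytotoxic lineage factor eomes had 1.41 to 4.14 and 0.260 to 1.16 CPM. In both the groups did not overlap, with log2 fold changes of -1.01 (SE 0.20) for jak3 and -1.77 (SE 0.35) for eomes. The signalling adaptor sh2d1a had a lower level in both copies, at -1.99 and -1.79, with 5 of 6 gold-fed livers below the lowest control for sh2d1a.1.2. The haematopoietic actin regulator hcls1 had a log2 fold change of -1.52.

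The leukocyte cytoskeleton and signalling genes of the list differed alike. Pleckstrin (plek), a kinase substrate of platelets and leukocytes, had 4.07 to 6.42 CPM in control and 2.22 to 3.25 CPM in gold-fed livers, without overlap (-1.01, SE 0.17, edgeR adjusted p 0.201, DESeq2 adjusted p 4.45e-05). The exchange factor vav1 (-1.1), the actin bundler PLSL (-1.26), the GTPase RAC2 (-1.0) and the T cell kinase lck (-0.90) were lower, and control eel 1 was the lowest control for each. The common leukocyte antigen ptprc had 6 copies with log2 fold changes from -1.24 to -0.58, and 4 of them had an unadjusted p below 0.05.

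The myeloid list, genes of macrophages and neutrophils, had 5 of 18 contigs (27.8%) lower and 0 higher, beside 4.0% and 4.41% of all contigs. Its median was -0.38. The integrin beta 2 copies itgb2.2.2 (-1.13) and itgb2.1.2 (-0.56), the oxidase subunit ncf4 (-1.21), the lineage factor spi1 (-0.82) and the kinase hck (-0.80) made up the 5. For itgb2.2.2 control livers had 5.17 to 12.4 and gold-fed livers 2.04 to 6.10 CPM, with 5 gold-fed livers below the lowest control. The receptor csf1r had 0.776 to 1.84 and 0.605 to 1.87 CPM (-0.32), and cd68.2.2, a lysosomal marker of macrophages, had a log2 fold change of 0.45. The other cd68 contig, cd68.1.2, differed the other way, at 20.2 to 42.6 CPM in control and 11.75 to 35.2 CPM in gold-fed livers.

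Blood itself was also measured in these samples. Of 22 erythrocyte contigs, 18 had a log2 fold change below 0 and 4 above, 0 had an unadjusted p below 0.05 in edgeR and 0 were called by DESeq2, and the median was -0.30. Without control eel 6 the median was -0.00, with 12 contigs below 0 and 10 above, and it was -0.19 without control eel 1, -0.17 without gold-fed eel 8 and -0.10 without gold-fed eel 11. The summed erythrocyte markers were 550 to 2150 CPM in control (median 752) and 238 to 1230 CPM in gold-fed livers (median 904), so the medians differed in the other direction than the fold changes, and the summed T, B and pan-leukocyte markers, with 5 of 10 names found, were 23.4 to 49.9 and 14.1 to 30.4 CPM. The markers cd3e, cd8a, zap70, cd79a and cd79b matched no contig. The part of residual blood in the leukocyte values was not tested.

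The interferon list was divided. Of 25 contigs, 4 (16%) were lower and 2 (8%) higher at an unadjusted p below 0.05, beside 4.0% and 4.41% of all contigs. Of the 25, 19 lay below 0, and the median was -0.33. The factor irf9, which carries type I interferon signals to the nucleus, had 21.98 to 73.6 CPM in control (median 37.9) and 8.98 to 22.5 CPM in gold-fed livers (median 14.7). Of the gold-fed livers 5 lay below the lowest control, and the log2 fold change was -1.49 (SE 0.31, edgeR adjusted p 0.228, DESeq2 adjusted p 0.00228). The mitochondrial adaptor mavs was also lower (-0.39). The opposite direction was seen for irf7, at 1.26 to 2.5 CPM in control and 1.66 to 6.07 CPM in gold-fed livers (1.05), and for the antiviral GTPase MX1 (1.46), which was 0.67 without eel 12, its highest liver at 10.2 CPM.

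Genes of antigen processing also had lower values in gold-fed livers. The peptide transporter tap1 had 5.80 to 13.5 CPM in control and 3.18 to 7.59 CPM in gold-fed livers (-0.93), and the immunoproteasome subunit psb8 had 9.59 to 47.2 and 4.06 to 21.7 CPM (-1.03). Contig psb8 counts among the lower members of the interferon list above and of the proteasome list below, and is not in the antigen presentation list. Control eel 2 was highest for irf9, tap1 and psb8. The antigen presentation and NOD-like receptor list had 2 of 12 contigs (16.7%) lower and 0 higher, beside 4.0% and 4.41% of all contigs. Its median was -0.42. The count was 5 without gold-fed eel 7 and 2 or 3 without any other liver. Proteasome subunits, the core of regulated protein breakdown, had 42 of 47 contigs below 0 but a small median of -0.27. At an unadjusted p below 0.05, 5 (10.6%) were lower, and that count depended on most of the livers. It was 1 without control eel 2, control eel 5, gold-fed eel 11 or gold-fed eel 12, 2 without control eel 6 or gold-fed eel 9, and 3 without gold-fed eel 8. It was 8, 10 and 9 without control eels 1, 3 and 4, and 2 with library totals as the scaling. With library totals as the scaling 2 were lower.

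A cytokine receptor, crfb4, was among the named contigs of small p. In zebrafish it is the shared chain of interleukin 10 and interleukin 22 receptors. It had 0.391 to 5.34 CPM in control livers, with a median of 2.97. Gold-fed livers had 0.209 to 0.915 CPM, with a median of 0.316. Control eel 1, at 0.391, was within the gold-fed range and the other controls were above it. The log2 fold change was -2.93 (SE 0.57, DESeq2 adjusted p 9.61e-05), and -1.41 in brain. The death ligand tnfsf10 (-0.71), the signalling inhibitor socs2.3.4 (-0.87) and the chemokine ccl4 (-1.24) were the 3 of 26 cytokine contigs (11.5%) lower at an unadjusted p below 0.05, with 0 higher. Of all contigs, 4.0% were lower and 4.41% higher. Toll-like receptor and NF-kappa-B genes had 2 of 30 lower (6.67%), complement had 1 of 35 higher (2.86%) and 2 lower (5.71%), shares close to those of all contigs, and coagulation genes had 0 of 12. Complement c6 had 47.9 to 115 CPM in control and 104 to 207 CPM in gold-fed livers (0.80), and c4 was lower (-0.51). Without eel 11 the complement count lower was 6, and the Toll-like receptor count was 0 without control eel 2 or gold-fed eel 10.

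**Figure D3:**
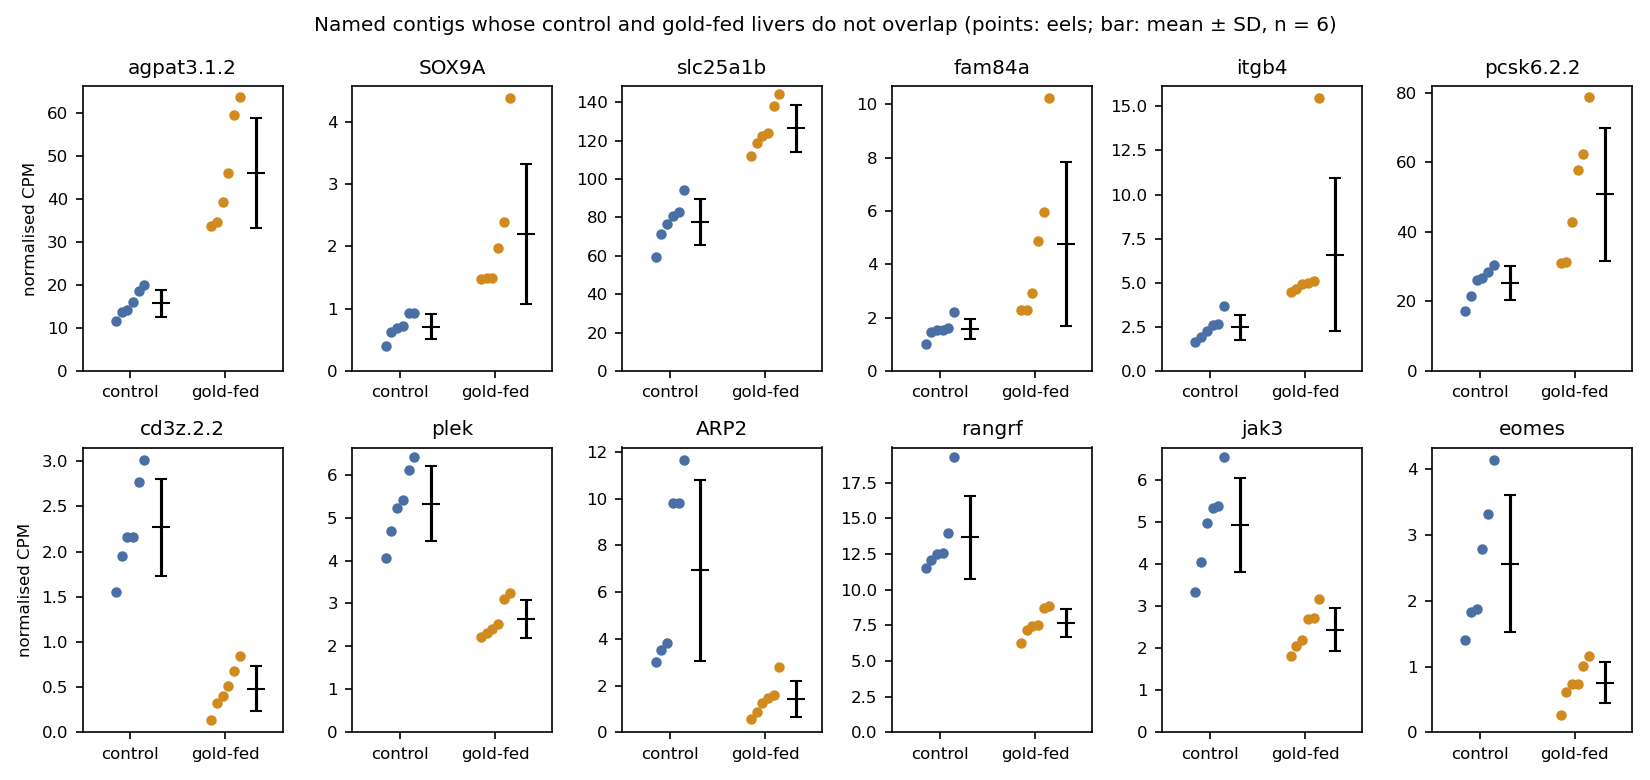
Normalised CPM (vertical) of the 6 named contigs of smallest p per direction whose groups did not overlap. Each point is 1 eel, ordered by value within its group, and black bars are the mean ± SD of 6 livers. The top row holds contigs higher in gold-fed livers, such as slc25a1b (59.2 to 94.5 against 112 to 144 CPM), and the bottom row contigs lower in them, such as plek (4.07 to 6.42 against 2.22 to 3.25 CPM).

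The 17 biliary and intestinal contigs had a median of 0.31. At an unadjusted p below 0.05, 3 (17.6%) were higher and 0 lower, beside 4.41% and 4.0% of all contigs. The count was 6 without gold-fed eel 12 and 5 with library totals as the scaling. SOX9A, one of the 3, a transcription factor that marks bile duct cells in mammals, had 0.398 to 0.928 CPM in control (median 0.702) and 1.48 to 4.37 CPM in gold-fed livers (median 1.73). Those groups did not overlap, and the log2 fold change was 1.62 (SE 0.32, edgeR adjusted p 0.228, DESeq2 adjusted p 0.00104), or 1.29 without eel 10. Contigs labelled sox9 in the same list overlapped between groups. Contig sox9.1.2 had 0.521 to 1.29 CPM in control and 0.532 to 1.47 CPM in gold-fed livers, and sox9.2.2 had 0.068 to 0.549 and 0.117 to 0.604 CPM. The epithelial adhesion molecule epcam had 0.974 to 2.73 and 1.91 to 8.53 CPM (1.32), and the duct and hepatocyte factor onecut2 had 4.15 to 8.76 and 8.87 to 13.5 CPM (0.68), without overlap. The keratins K1C18 and K2C8 of the same list had values on both sides, from -0.59 (K2C8.5.5) to 0.76 (K2C8.4.5). Summed biliary and intestinal markers overlapped, at 258 to 430 CPM in control and 188 to 425 CPM in gold-fed livers.

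The next contigs belong to no list described here as a group and are given because their p was among the smallest. Integrin beta 4 (itgb4), of the hemidesmosomes that fix epithelia to their basement membrane, had 1.63 to 3.70 CPM in control and 4.49 to 15.5 CPM in gold-fed livers, without overlap. Its log2 fold change of 1.42 was 0.96 without eel 12. Cadherin cdh4.1.2 had 0.521 to 1.78 and 1.37 to 12.2 CPM (2.46, SE 0.47, DESeq2 adjusted p 0.000184), with 5 gold-fed livers above the highest control. Its second copy, cdh4.2.2, overlapped between groups, at 0.246 to 1.79 and 0.480 to 1.75 CPM. The junction scaffold magi1b had 2.31 to 3.85 and 4.01 to 5.41 CPM (0.65) and the proprotein convertase pcsk6.2.2 had 17.3 to 30.6 and 31.0 to 78.9 CPM (1.01), both without overlap. The other pcsk6 copy, pcsk6.1.2, overlapped, at 28.2 to 42.0 and 35.9 to 56.7 CPM. Developmental zinc finger sall1.2.2 had 12.2 to 18.3 CPM in control and 18.1 to 31.7 CPM in gold-fed livers (0.89), and its second copy, sall1.1.2, had 1.25 to 1.58 and 1.85 to 4.27 CPM (0.87), without overlap. In brain all of itgb4, cdh4.1.2, magi1b, pcsk6.2.2, sall1.2.2 and sall1.1.2 had log2 fold changes between -0.04 and 0.16.

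The other named contigs of smallest p with higher values were fam84a (1.6, and 1.23 without eel 11), the ubiquitin ligase subunit WSB1.3.5 (0.79) and geminin (gmnn, 0.79). Copies WSB1.1.5 (1.35 to 3.02 CPM in control, 1.83 to 2.96 CPM in gold-fed livers) and WSB1.2.5 (2.73 to 5.24 and 3.47 to 6.78 CPM) overlapped. So did WSB1.4.5 (2.63 to 6.28 and 3.21 to 11.3 CPM) and WSB1.5.5 (7.5 to 11.3 and 8.84 to 14.2 CPM). Geminin is an inhibitor of DNA replication licensing. Cell cycle genes otherwise had 2 of 23 contigs higher (8.7%), labelled ccnd1 and CCND1 (0.58 and 0.60), and 1 lower (4.35%). The shares of all contigs were 4.41% and 4.0%. The count lower was 3 without gold-fed eel 9. With lower values were the Ran regulator rangrf, at 11.5 to 19.3 CPM in control and 6.24 to 8.85 CPM in gold-fed livers, without overlap (-0.84), and ARP2, described with endocytosis below. Extracellular matrix genes had 0 of 32 contigs in either direction with edgeR and 0 called by DESeq2, with 2 higher without control eel 5, without gold-fed eel 7 or with library totals as the scaling, and stellate and endothelial genes had 1 of 24, reelin (reln, 0.64).

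Metal handling genes gave no contig with an unadjusted p below 0.05 in either direction among 33 with edgeR, and DESeq2 called 0. With library totals as the scaling, or without gold-fed eel 10, 2 were higher. The median log2 fold change was 0.04. Metallothionein MTA, which binds zinc, copper and cadmium and is known to respond to metals, had 430 to 1522 CPM in control (median 746) and 333 to 1107 CPM in gold-fed livers (median 422). The groups overlapped, gold-fed eel 8 standing at 1107 and the other gold-fed eels at or below 458 CPM, and the log2 fold change was -0.71 (SE 0.37). Transferrin receptor tfr2 had a log2 fold change of 0.83, which was 0.25 without eel 11. The ferritin contig FRIM.1.2 had -0.47 and the copper transporter slc31a1.2.2 had 0.37.

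Antioxidant and glutathione genes had 6 of 56 contigs (10.7%) lower and 1 (1.79%) higher, beside 4.0% and 4.41% of all contigs. Their median was -0.17. Of the 6, gstk1.2.3, gstk1.3.3 and sod1.1.3 are single copies of labels with several, and are taken up with the copies below. Thioredoxin reductase txnrd3 had 10.9 to 18.3 CPM in control and 9.34 to 12.2 CPM in gold-fed livers (-0.50). Xenobiotic phase I genes had 2 of 25 higher (8%) and 2 lower (8%), beside 4.41% and 4.0% of all contigs. The count lower was 4 without gold-fed eel 7 and 0 without gold-fed eel 10 or 12. Cytochrome P450 CP2K1.1.2 had 6.70 to 27.9 CPM in control and 5.02 to 147 CPM in gold-fed livers (1.65, and 1.11 without eel 11), and the monooxygenase fmo5 had 252 to 453 and 104 to 385 CPM (-0.73). Phase II genes had 0 of 7.

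Heat shock genes had 4 of 30 contigs higher (13.3%) and 0 lower, beside 4.41% and 4.0% of all contigs. Their median was 0.07. Without control eel 1, gold-fed eel 11 or gold-fed eel 12, 2 were higher, and without control eel 3, 2 were lower. Chaperone dnajb5.2.3 was at 154 CPM in eel 11 and between 0.964 and 4.37 CPM in the other gold-fed livers, with 2.02 to 5.03 CPM in controls, so that its log2 fold change of 3.12 was -0.27 without eel 11. The mitochondrial chaperone trap1.2.2 was at 31.2 CPM in eel 12 (1.24, and 0.25 without it). The heat shock factor copy hsf1.4.4 had 0.548 to 0.927 and 0.617 to 1.58 CPM (0.77). The unfolded protein response had 2 of 29 higher (6.9%, beside 4.41% of all contigs) and 0 lower, or 5 lower without gold-fed eel 9. Those higher were the endoplasmic reticulum stress kinase eif2ak3.1.2 (0.72) and herpud1 (0.65). DNA damage genes had 1 of 26 each way (3.85%), close to the shares of all contigs. The count higher was 5 without gold-fed eel 7 and 3 without control eel 3 or with library totals as the scaling. The repair protein xrcc6 had 3.30 to 7.73 CPM in control and 3.27 to 4.27 CPM in gold-fed livers (-0.79, DESeq2 adjusted p 0.0427). Apoptosis genes had 1 of 27 higher (3.7%, beside 4.41% of all contigs), bcl2.1.2 (0.57), and 0 lower, or 3 lower without control eel 3.

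Endocytosis genes, which take up particles and membrane, had 7 of 71 contigs lower (9.86%) and 1 higher, beside 4.0% and 4.41% of all contigs. Their median was -0.00. Without control eel 2 or control eel 6, 4 were lower. The members lower included the Rab GTPase contig rab5c.2.4, at 31.0 to 60.3 CPM in control and 27.2 to 34.05 CPM in gold-fed livers. Also among them were subunits of the Arp2/3 complex, which nucleates branched actin. Contig ARP2 had 2.99 to 11.6 CPM in control livers (median 6.82) and 0.590 to 2.82 CPM in gold-fed livers (median 1.36), without overlap (-2.28, SE 0.44, edgeR adjusted p 0.228, DESeq2 adjusted p 0.000257). The smaller subunit ARPC4.5.5 also did not overlap, at 17.5 to 26.8 and 11.9 to 17.4 CPM (-0.51), and arpc3 had -0.76. These genes are also active in leukocytes.

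Lysosome genes had 6 of 41 contigs higher (14.6%) and 3 lower (7.32%), beside 4.41% and 4.0% of all contigs. Their median was -0.01. Without gold-fed eel 9, 3 were higher. The tetraspanin cd63 of late endosomes had 1.58 to 6.00 CPM in control (median 4.03) and 0.703 to 1.62 CPM in gold-fed livers (median 1.06), overlapping through control eel 1 (-1.79, SE 0.30, edgeR adjusted p 0.201, DESeq2 adjusted p 3.48e-05). Without control eel 1, cd63 was among 3 contigs that passed in edgeR. The membrane protein lamp2.2.2 had 24.2 to 28.2 and 15.8 to 23.2 CPM, without overlap (-0.37). The lysosomal gene regulators tfeb.1.2 (1.06), tfeb.2.2 (0.57) and tfe3.1.2 (0.82) were higher at under 2 CPM in every liver.

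Hepatocyte genes had 2 of 52 contigs higher and 1 lower, with a median of -0.06 (3 lower without control eel 2), and glycolysis and gluconeogenesis 0 of 24 (2 higher without control eel 2 or 3). Ribosomal proteins had 3 of 229 higher and 4 lower, and the count lower ran from 0 without control eel 2 to 15 without gold-fed eel 10. It was 9, 8 and 1 without control eels 4, 5 and 6, and 1 with library totals as the scaling. The count higher was 6 without gold-fed eel 8 and 1 without gold-fed eel 10. Oxidative phosphorylation had 1 of 89 higher and 4 lower at an unadjusted p below 0.05, although 72 of the 89 lay below 0 and the median was -0.21. Its count lower was 2 without control eel 2, control eel 6 or gold-fed eel 9, and 11, 10 and 8 without control eel 3, control eel 4 and gold-fed eel 10. Clock genes had 1 of 18 lower, per3.3.5 (-1.13), and 0 higher, but 6 were higher without control eel 3, where the median was 0.37 in place of 0.19. Estrogen response genes had 1 of 12 each way (8.33%). Beside all of these lists, the shares of all contigs were 4.41% higher and 4.0% lower. The pancreas list had 1 tested contig, the carboxypeptidase cbpb1, at 406 CPM in gold-fed eel 9 and at most 18.1 CPM in every other liver.

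**Figure D4:**
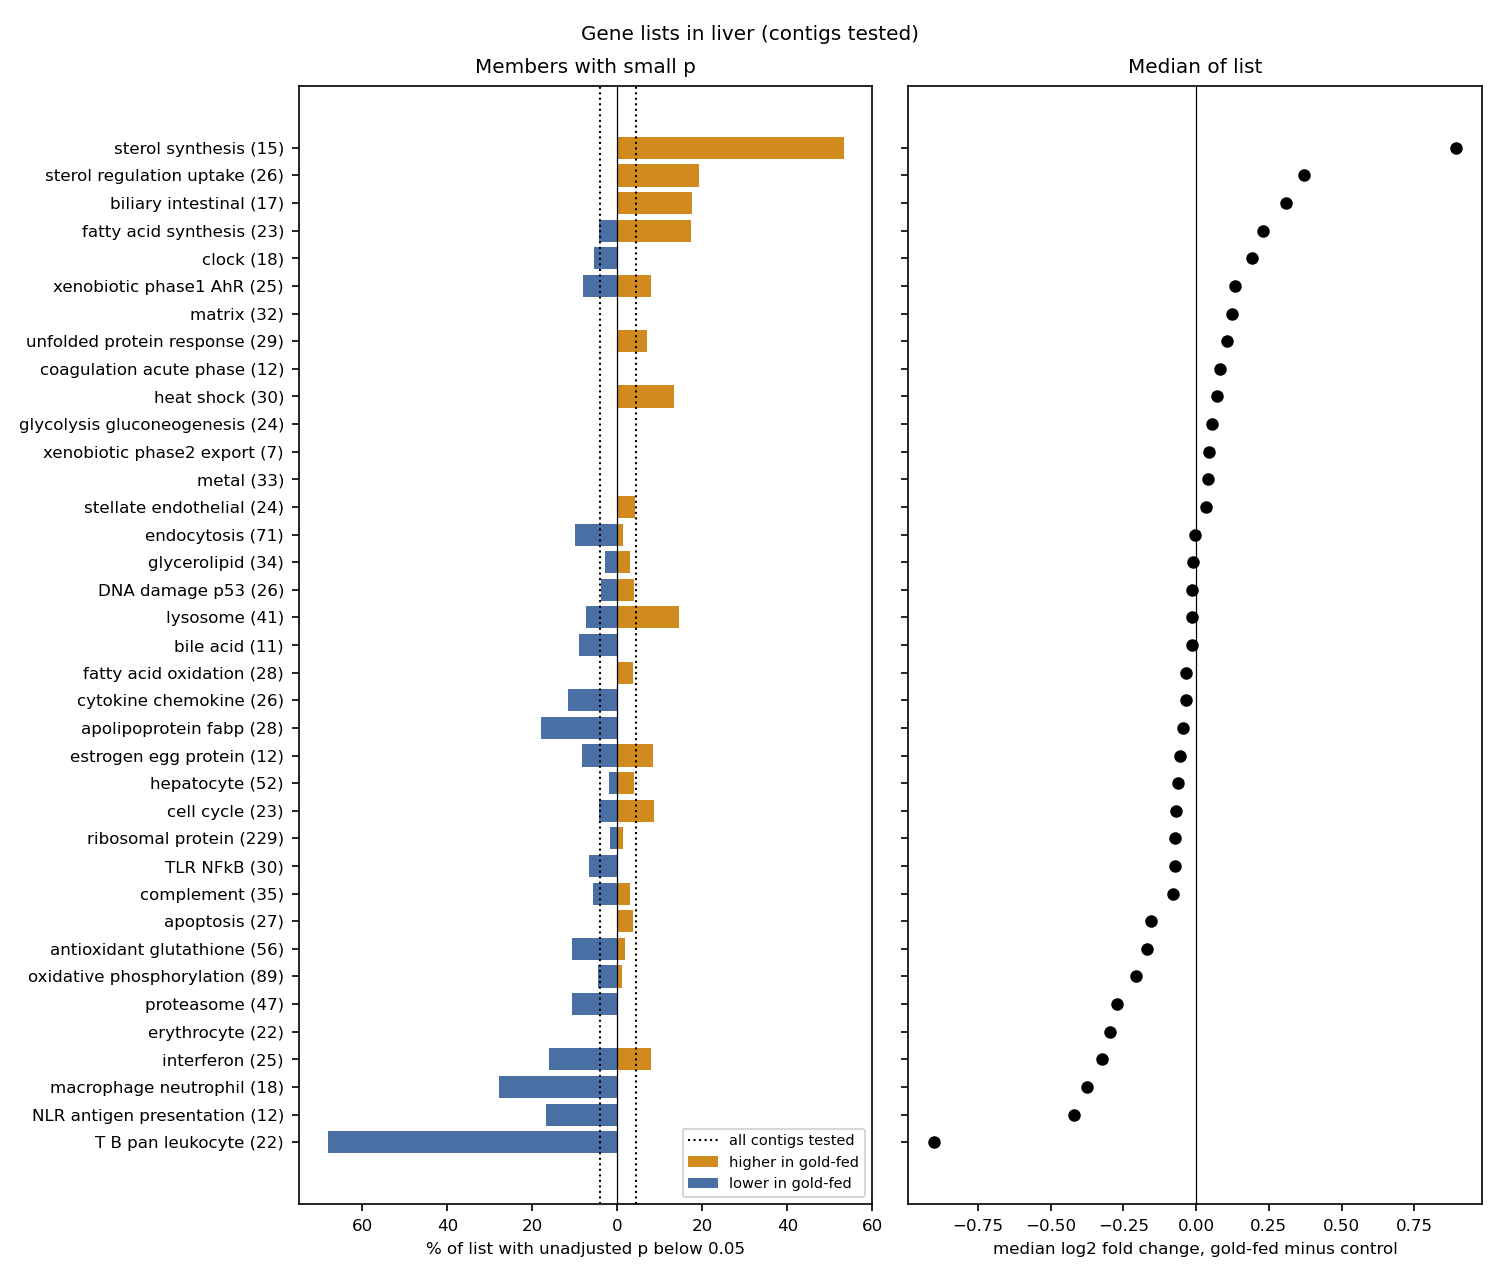
Gene lists with at least 5 tested contigs, sorted by median log2 fold change (right panel, gold-fed minus control). The left panel gives the percentage of each list's contigs with an unadjusted edgeR p below 0.05, higher (right of 0) or lower (left of 0), and dotted lines mark the 4.41% and 4.0% of all contigs. Sterol synthesis (53.3% higher) and T, B and pan-leukocyte genes (68.2% lower) stand at the ends.

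Contigs that share a label did not always differ alike. Of 4331 labels with at least 2 tested contigs, 771 had a contig at an unadjusted p below 0.05 and 21 had such contigs in both directions. Of the contigs of these labels 8.46% had such a p. That share was 7.84% for contigs whose gene label had a single tested contig and 8.41% for all contigs. Among those 21 was lamtor3, a subunit of the lysosomal Ragulator complex. Contig lamtor3.3.4 had 0.991 to 2.76 CPM in control and 2.28 to 6.3 CPM in gold-fed livers (1.36), while lamtor3.2.4 had 5.29 to 9.88 and 2.26 to 5.72 CPM (-0.97). With the 4 copies summed the log2 fold change was -0.13. In the brains of the same eels, lamtor3.3.4 had a log2 fold change of 1.75 and lamtor3.2.4 of -0.81.

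A small set of other copies, picked after their values were seen, also had a like difference in both tissues of the same eels. The glutathione transferase contig gstk1.2.3 had 3.41 to 3.73 CPM in control and 0.885 to 2.64 CPM in gold-fed livers, without overlap (-1.04), and -1.01 in brain. In liver gstk1.3.3 was also lower, at 15.75 to 37.3 CPM in control and 7.45 to 19.6 CPM in gold-fed livers. The copy gstk1.1.3 had 43.2 to 78.05 and 31.6 to 82.7 CPM. Superoxide dismutase contig sod1.1.3 had -1.14 in liver and -0.99 in brain, the alcohol dehydrogenase contig ADHX.1.2 had -0.92 and -0.97, per3.3.5 had -1.13 and -1.23, and the cytochrome oxidase contig COX6A.1.4 had -1.53 and -1.23. In liver the groups overlapped for each of these contigs. For COX6A.1.4, control eel 1 stood at 77.9 CPM, the other controls at 6.86 to 26.5 CPM and gold-fed livers at 5.37 to 12.4 CPM. After the copies of each label were summed, liver log2 fold changes were -0.36 (gstk1), -0.19 (sod1), -0.22 (ADHX), -0.32 (per3) and -0.17 (COX6A). How reads were divided between copies was not tested. Labels whose copies differed alike in liver, such as cd3z, sh2d1a, sall1, srebf2 and fabp1, kept the direction of their single contigs after summing, at -2.0, -1.87, 0.88, 1.27 and -5.19.

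**Figure D5:**
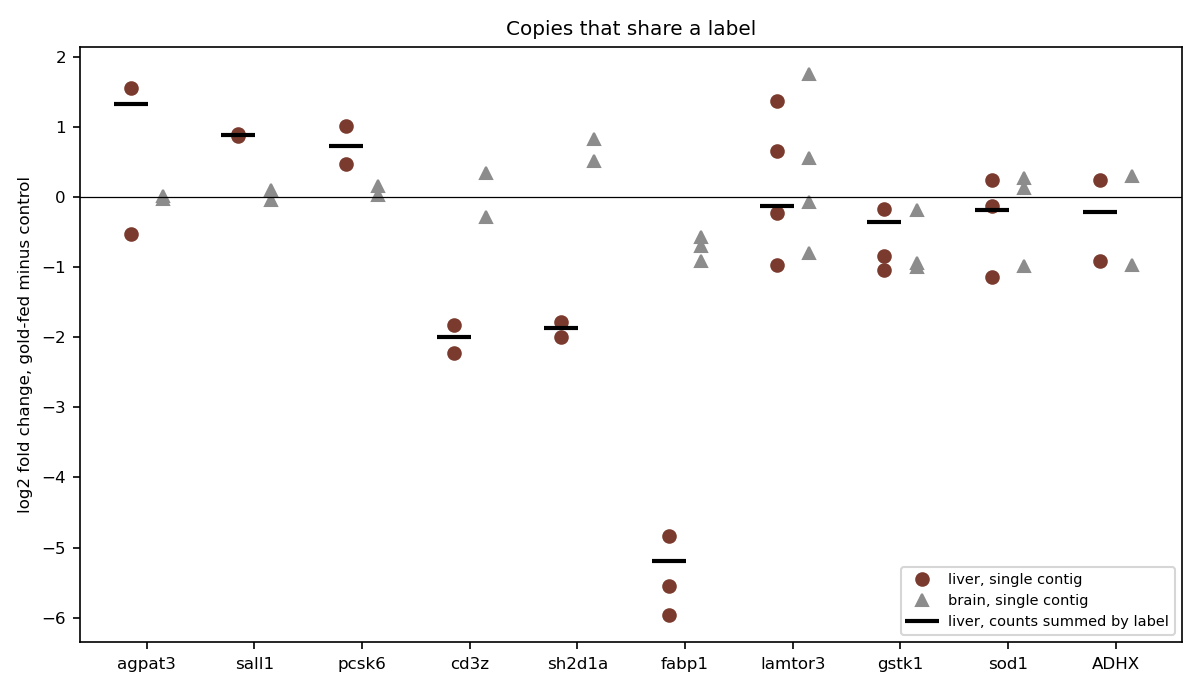
Log2 fold change (gold-fed minus control, vertical) of each contig of 10 labels (horizontal), as circles for liver and triangles for brain of the same eels. Black dashes are liver values after the copies were summed, for example -0.13 for lamtor3, whose 4 liver copies run from -0.97 to 1.36, and -5.19 for fabp1.

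Contigs without a gene name included differences as large. Contig contig_17929 had 0.133 to 1.23 CPM in control and 2.58 to 9.85 CPM in gold-fed livers (2.56), and contig_01539 had 1.39 to 4.59 and 5.27 to 30.8 CPM (2.47). Lower were LOC106606884, at 3.45 to 7.61 and 1.46 to 2.38 CPM (-1.62), and LOC105012780, at 0.953 to 2.78 and 0.310 to 0.684 CPM (-2.08). None of these 4 overlapped between groups. Both LOC contigs had an edgeR adjusted p of 0.0652.

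Over all contigs the livers did not separate cleanly by group. The first principal component of log2(CPM + 0.5) held 15% of the variance and differed between groups with an exact permutation p of 0.0628, and the third held 10.4% with an exact permutation p of 0.039. After adjustment over 4 components by Benjamini-Hochberg, both exact permutation p-values were 0.126. The common biological coefficient of variation was 0.451 in control and 0.470 in gold-fed livers.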

How the data were processed

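RNA was extracted on silica columns and made into TruSeq RNA version 2 libraries, per the labels' protocols. The authors deposited a table of whole-number read counts for each contig of an assembled transcriptome, with differing library totals and no normalisation. The submitters' processing notes name BWA 0.7.12 and SAMtools 1.1. The sources used here do not say how the assembly was built and annotated, how reads were counted and filtered, or whether strand was used. The table covered 50640 contigs, each with at least 9 reads in its highest library. Reads of 1 gene can be split between contigs that share a label, and overlapping or antisense transcripts could not be told apart. Contig lengths were not used, so levels are not compared between genes.

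Liver groups were compared with edgeR 4.0.16 by its two-sided quasi-likelihood test, after filterByExpr on the groups and TMM scaling, in R 4.3.3, with Benjamini-Hochberg adjustment over 41793 contigs. CPM values are scaled by TMM. Standard errors derive from the F statistic. Exact permutation tests (scipy 1.17.1) used all 924 arrangements, and the smallest p these allow is 0.00216. DESeq2 1.42.0, limma 3.58.1 (voom), other scalings and filters, copies summed by label, all 24 libraries and the omission of each liver were alternatives. DESeq2 gave no adjusted p for 1121 contigs.

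Named contigs had a gene or protein name and a mean of at least 1 CPM. The 12 of smallest p per direction were named, with up to 4 members per list and their copies, and further members, among them those below 1 CPM, were chosen after their values were seen. All 38 lists, the comparison and the naming rule were chosen with earlier results of these data known, and no list was tested as a set. Some list members count in their lists but are not reported here by name. The edgeR step was tested on simulated data.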

Additional observations from a re-analysis of the deposited data

Results flagged for a closer look

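In sets of 6 livers, 1 value lay apart from the other 5 by more than Dixon's 95% limit in 11 of 84 sets examined. In all 11 it was the highest value. The limit holds for normally distributed values, which was not checked, and the sets are not independent, so the count is not compared with a chance rate. Gold-fed eel 11 was the highest liver in 7 of the 11 cases, 5 of them sterol genes. Its levels were 25.3 CPM for tm7sf2, 104 CPM for fdft1.2.2, 42.9 CPM for lss, 522 CPM for msmo1 and 64.3 CPM for srebf2.2.5, and also 0.915 CPM for crfb4 and 0.704 CPM for fabp1.2.3. For the latter pair the gold-fed group was the lower one, so eel 11 stood nearest to the controls.

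Gold-fed eel 10 was apart from its group for SOX9A, at 4.37 CPM, and for cd3z.1.2, at 1.40 CPM. Gold-fed eel 12 was apart for itgb4, at 15.5 CPM. Among controls, eel 4 was apart for rangrf, at 19.3 CPM. The causes of these values were not tested.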

How the results depend on the processing

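No paired analysis was possible because the control and gold-fed livers come from different eels and share no replicate number. The number of contigs past the adjusted threshold, 0 in edgeR, was 289 in DESeq2 and 229 with all 24 libraries in the fit, and 0 to 3 as each liver was left out. The number at an unadjusted p below 0.05, 3513, was 7140 with all 24 libraries, 2332 among contigs of at least 1 CPM in 6 livers, and 2956 to 3991 as each liver was left out. The number without overlap, 197, was 127 under that filter and 265 to 428 as each liver was left out, which sets 5 livers against 6. The causes of these changes were not tested.

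Of 2802 values of 134 named contigs under the alternatives, 11 had another sign. With copies summed, values were -0.13 for lamtor3.3.4 and lamtor3.4.4, 1.32 for agpat3.2.2, -0.12 for tdo2.4.4, 0.065 for nfkbia.2.2 and 0.0099 for contig RS20.1.2. Contig cbpb1 had -0.22 with limma-voom, -0.30 with library quality weights and ranged from -2.32 (without eel 9) to 4.44 as each liver was left out. The same range was -0.27 (without eel 11) to 3.37 for dnajb5.2.3 and -0.0050 (without eel 11) to 0.17 for WSB1.5.5. All 24 leading named contigs passed the adjusted threshold in DESeq2 and 18 with all 24 libraries in the fit. At these depths the counting error of a contig at 1 CPM is below the spread between eels. Levels below 1 CPM, as for fabp1.2.3, CH25H and ccl4 in gold-fed livers, rest on fewer reads. Their counting error was not compared with that spread.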
